A study of Mus musculus with 18 samples.

Results

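Med24 loss was examined at 8 h of ERK activation by comparing the 3 knockout libraries of nascent RNA with the 3 rescued libraries of the same time, 6 of the 18 libraries in the series, across every gene counted. All cells were mouse embryonic stem cells of strain E14tg2a on a 129SV background in which endogenous Med24 had been knocked out, and all carried a tetracycline-regulated cDNA for FLAG-Med24 together with a cRAF-ErT2-T2A-RTTA cassette. Knockout cells (labelled KO) were kept without doxycycline for several passages. Rescued cells (labelled WT) were kept with doxycycline at 500 nM, so they are not unmodified wild type, and doxycycline itself cannot be told apart from Med24 in any comparison. Cells were grown in serum and LIF with Chir99021, a GSK3 inhibitor that raises Wnt signalling, at 2 µM. For the last 24 h before treatment they were moved to serum and LIF with PD173074, an FGF receptor inhibitor, at 250 nM, and 4OHT at 250 nM then switched on cRAF-ErT2 for 8 h. RNA made in the last 15 min was labelled with ethynyl uridine at 5 mM and captured. Each group held clones A, B and C. P-values rest on the spread between clones within groups, estimated over all 6 groups together and not for the knockout clones of 8 h alone. The 12 libraries of 0 h and 2 h entered the same statistical model and serve below to say when a difference was present.

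Mediator is a large complex of head, middle, tail and kinase modules that carries signals from transcription factors at enhancers to RNA polymerase II. Med24 belongs to the tail, which many activators contact. ERK is the last kinase of the RAF, MEK and ERK cascade. It phosphorylates transcription factors, switches on immediate early genes and genes whose products restrain the cascade, and in embryonic stem cells it promotes the exit from naive pluripotency, the state that LIF and inhibition of this cascade maintain.

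The deposited table held read counts for 25897 gene symbols, of which 14128 were tested. Totals in the 8 h libraries were 6691177 to 9240314 counts in knockout and 7634532 to 14541145 counts in rescued cells. Levels are given as CPM after TMM scaling, which does not correct for gene length. Knockout clones B and C stood apart. A set of 13 abundant genes was picked by a mean above 1000 CPM, a correlation with Cdk8 above 0.9 and an SD above 0.3. Correlation and SD were taken on log2 deviations from group means in all 18 libraries. That the members move together thus follows from the choice, in which clones B and C took part. Among them are Camk1d, Cd44, Cdk8, Fgfr2, Gphn, Il1rapl1, Il31ra, Jarid2, Kpna1, Lars2, Tmtc2 and Zc3h7a. The set held 18.2% of counts in knockout clone A, 36.4% in B and 43.9% in C, against 17.7% to 18.6% in the rescued clones. All 13 were called higher in knockout cells with 3 clones and none with clone A alone. The same set held 34.2% in knockout clone A at 2 h. Results that turn on B and C are therefore also given without them, where the knockout group is clone A only and that lone library is assumed to vary like the other groups. The labelled cell type was present in both groups: 10 embryonic stem cell markers summed to 2278 to 2708 CPM in knockout and 2123 to 2198 CPM in rescued libraries, while 7 fibroblast (feeder) markers summed to 5.34 to 7.96 CPM in knockout and 3.01 to 4.30 CPM in rescued libraries, with Lum at 0 counts in all 6 libraries. Of the fibroblast markers 2 could be tested and 1, Thy1, was higher in knockout cells (0.64), though not passing without clones B and C (0.54).

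**Figure D1:**
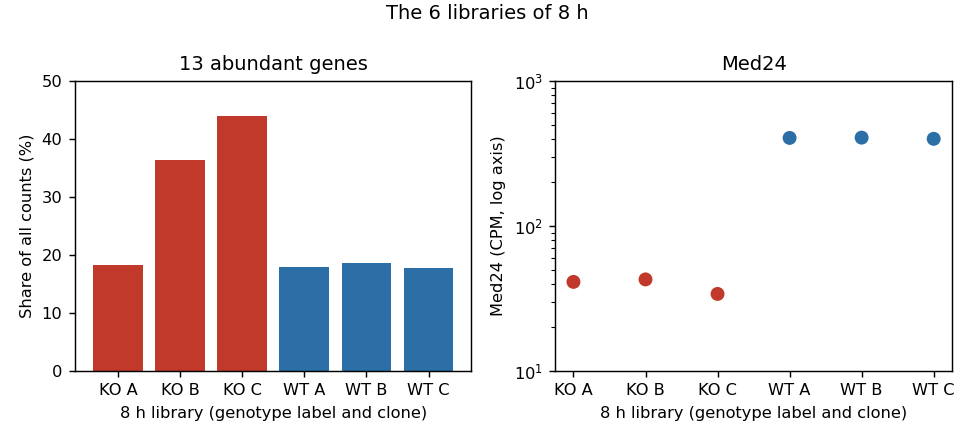
Share of all counts held by the 13 abundant genes (left, percent) and Med24 level (right, CPM, log axis) in each of the 6 libraries of 8 h, knockout (KO) clones first and rescued (WT) clones after them. The abundant genes hold 36.4% and 43.9% in knockout clones B and C and 17.7% to 18.6% in the other 4 libraries, while Med24 is low in all 3 knockout clones.

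Med24 itself (GRCm38 chromosome 11, 98704591 to 98729435, minus strand) stood at 41.1, 42.7 and 33.9 CPM in knockout clones and 405, 407 and 399 CPM in rescued clones. The groups were far apart and the clones of each close together. Its log2 fold change was -3.35 ± 0.084 (SE; adjusted p = 2.02e-23, edgeR quasi-likelihood test) and -3.30 without knockout clones B and C. Reads of the locus and of the cDNA cannot be told apart by gene symbol, so the reads left in knockout cells cannot be assigned to either.

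Most other Mediator subunit genes were not called. Of 32 Mediator genes tested, 6 were called higher and 5 lower in knockout cells (Med24 included), with a median log2 fold change of 0.06, and 4 and 4 without knockout clones B and C. Over all genes tested 14.5% were called higher and 17.1% lower, with a median of 0.00. In the tail, Med15 was lower besides Med24 (-0.20 ± 0.056), and Med16, Med23 and Med25 did not pass the test (0.07, 0.08 and 0.01). In the head, Med22 was lower (-0.35) and Med30 higher (0.25), and in the middle module Med26 was lower (-0.15) and Med7 (0.21) and Med9 (0.22) higher. The directions of Med7 and Med9 depend on the scaling, for with library size alone both were slightly below 0. Med9, Med30 and Med26 did not pass without knockout clones B and C (0.23, 0.26 and -0.05).

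In the kinase module, which binds the complex reversibly, the kinase gene Cdk19 was at 97.7, 82.3 and 80.2 CPM in knockout clones and 60.2, 67.4 and 73.3 CPM in rescued clones (0.40 ± 0.074), with no overlap. Knockout clones lay above throughout for 18.1% of all genes tested. Med12l was higher (0.45) and Med13l lower (-0.24). Med12l overlaps 6 other counted genes on the opposite strand, and the strand setting of the counting is not known here. The same doubt holds for Acvr2a, Araf, Ccnd3, Fosl1, Gphn, Itga7, Jak1, Junb, Rarb, Sox15, Spred3, Stat3 and Stra6, each of which overlaps another gene on the opposite strand. Cdk8, the paralog of Cdk19, leads the abundant set: it was at 45219.6, 112155 and 152273 CPM in the knockout (clones A, B, C in turn), against 42079 to 43654 CPM in rescued clones. Its log2 fold change of 1.27 ± 0.28 became 0.08 without knockout clones B and C.

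Across all genes the differences were many and mostly modest in size. A gene was called when its Benjamini-Hochberg adjusted p in edgeR's quasi-likelihood test, over all 14128 genes, was under 0.05. By this rule 2047 genes were higher and 2421 lower in knockout cells, 31.6% of those tested. These are shares of 14.5% and 17.1%, to be set beside the counts of each gene list below. Differences above 2-fold were fewer, with 272 genes higher and 385 lower. Every knockout clone lay above every rescued clone for 18.1% of genes tested and below for 22.1%. Separation of the groups, given for single genes below, is therefore common. The median called difference was 0.36 upward and -0.48 downward on the log2 scale. The split between directions depends on how libraries are scaled: 45.8% of called genes were higher with TMM scaling, but 8.19% with library size alone, where the median of all genes was -0.26, so every direction given is relative to the rest of that library.

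Leaving out knockout clones B and C removed some calls. Then 1467 genes were called higher (9.99% of 14692 tested) and 1931 lower (13.1%). Of the genes called with all clones, 1220 of 2047 higher and 1670 of 2421 lower genes were called again in the same direction. All 2421 lower genes stayed below 0 in that comparison, whereas 1985 of the 2047 higher genes stayed above 0.

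**Figure D2:**
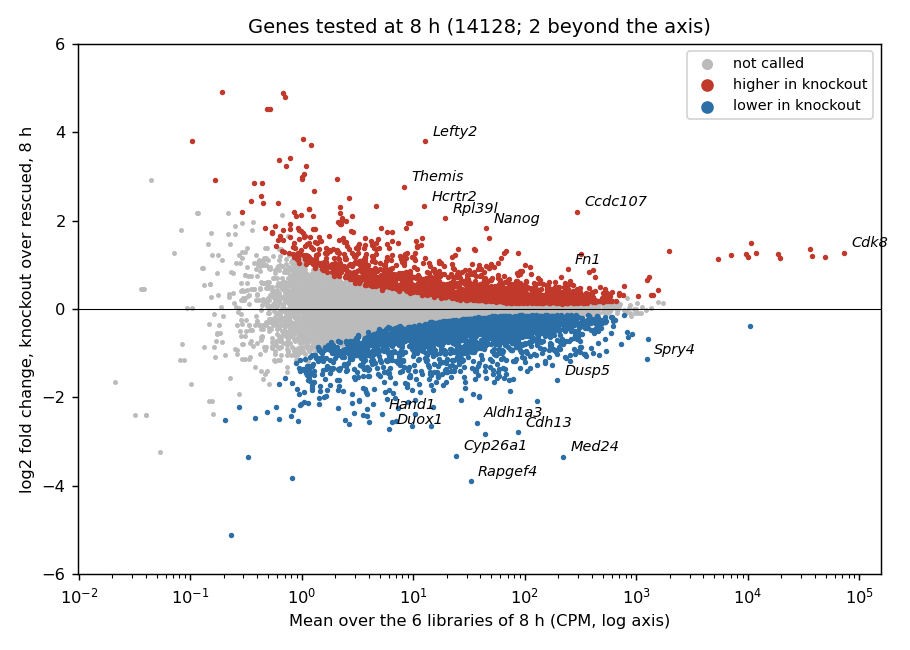
Log2 fold change between knockout and rescued cells at 8 h (vertical axis) against the mean level over the 6 libraries (CPM, log axis) for the 14128 genes tested. Coloured points are the 2047 genes called higher and the 2421 called lower in knockout cells, and the abundant genes led by Cdk8 (1.27) form a group at the far right.

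Most of the genes called at 8 h had not been called before 4OHT. Of the 2047 genes higher at 8 h, 360 were also called higher at 0 h (17.6% of the 8 h list and 37.3% of the 0 h list) and 753 at 2 h (36.8% and 49.2%). Of the 2421 lower genes, 573 were lower at 0 h (23.7% and 42.1%) and 1086 at 2 h (44.9% and 59.6%). Over all genes tested 6.83% were called higher and 9.64% lower at 0 h, and 10.8% and 12.9% at 2 h. At all 3 times 209 genes were higher and 331 lower. Of the genes called at 8 h, 1050 higher and 1004 lower ones were called in neither direction at 0 h or 2 h. A gene missing from an earlier list need not differ in size, so the difference of differences was tested as well. The 8 h difference lay above that at 0 h in 1113 genes (7.88%) and below it in 1255 (8.88%), and above that at 2 h in 619 (4.38%) and below it in 652 (4.61%).

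**Figure D3:**
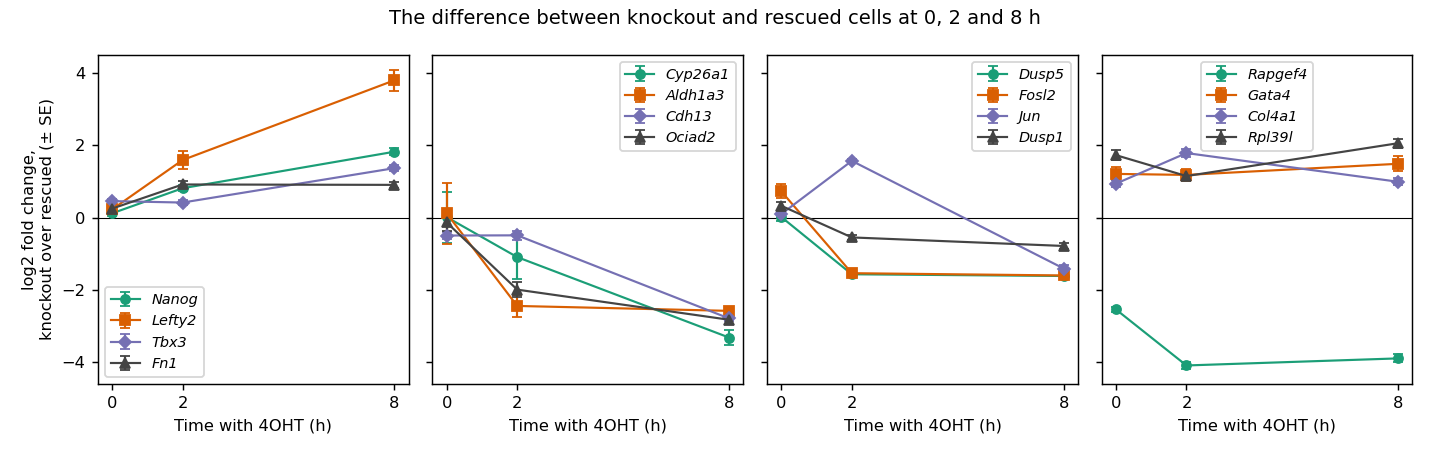
Log2 fold change between knockout and rescued cells with its standard error at 0, 2 and 8 h of 4OHT for 16 genes in 4 panels. Lefty2 (0.23, 1.59 and 3.80) and Nanog (0.12, 0.81 and 1.82) move upward with time, Cyp26a1 (0.02, -1.09 and -3.32) moves downward, and Rapgef4 (-2.54, -4.09 and -3.89) lies well below 0 at each time.

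Most of the genes that restrain ERK signalling were lower in knockout cells. Of 16 feedback genes tested, 14 were called lower and none higher, with a median log2 fold change of -0.48. Without knockout clones B and C the count was again 14 lower and none higher. Dusp5, which encodes a nuclear phosphatase that inactivates ERK, was at 99.98, 91.4 and 94.7 CPM in knockout clones and 295, 282 and 302 CPM in rescued clones (-1.61 ± 0.062). All knockout clones lay far below all rescued clones, with little spread inside either group. Knockout clones lay below throughout for 22.1% of all genes tested. At 0 h the gene was level between knockout and rescued cells (0.02), and from 0 h to 8 h it gained 2.53 on the log2 scale in knockout and 4.16 in rescued cells.

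The promoter of Dusp5 is shown because it holds 2 adjoining copies of the pattern that serum response factor binds, a factor through which immediate early genes answer ERK. The motifs printed here and below were chosen with the results known. The window runs from 250 bases before to 50 after the RefSeq start of the gene on GRCm38.p6, chr19:53528895-53529194, plus strand, 5′ to 3′. Capitals mark the pattern searched on both strands, which reads CC, 1 base of any kind, TAT, 2 bases of any kind and GG. It occurs in 1.54% of the 32851 RefSeq promoter windows of this length.
Dusp5 promoter: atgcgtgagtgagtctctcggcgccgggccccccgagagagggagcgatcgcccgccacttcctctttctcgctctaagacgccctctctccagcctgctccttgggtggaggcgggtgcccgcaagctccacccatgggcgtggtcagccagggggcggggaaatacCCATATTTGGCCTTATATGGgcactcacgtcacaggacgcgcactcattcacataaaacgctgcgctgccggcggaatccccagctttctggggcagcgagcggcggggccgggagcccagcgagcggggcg

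The other phosphatase genes were lower to varying degrees. Dusp6, whose product acts on ERK in the cytoplasm, was at 225, 226 and 218 CPM in knockout clones and 335, 331 and 339.5 CPM in rescued clones (-0.59 ± 0.057), with the groups apart. Dusp2 (-1.17) and Dusp1 (-0.78) were lower, Dusp4 only slightly (-0.15, adjusted p = 0.0364), and Dusp7 did not pass (-0.23). The Dusp1 locus overlaps Ergic1 on the opposite strand. Dusp1 and Dusp4 had been higher in knockout cells at 0 h (0.33 and 0.74).

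The Sprouty and Spred genes, whose products hold back the pathway upstream of or at RAF, were lower in 5 of 6. Spry4 was at 818, 743 and 762 CPM in knockout clones and 1668, 1757 and 1703 CPM in rescued clones (-1.14 ± 0.068), a difference already present at 0 h (-1.07). Spred1 (-0.56), Spry2 (-0.41), Spred2 (-0.38) and Spry1 (-0.30) were lower too, and Spred3 did not pass (-0.26). The remaining restraints were all lower: Phlda1 (-0.82), Lrig1 (-0.55), Errfi1, which encodes an inhibitor of the EGF receptor (-0.38), and Il17rd (-0.27). Lrig1 overlaps Slc25a26 on the opposite strand.

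The cascade itself was mixed, beside 14.5% higher and 17.1% lower over all genes. Of 16 genes from RAS to ERK and its adaptors, 3 were higher, among them Braf (0.28) and Nras (0.22), and 4 lower, Ksr1 (-0.39), Map2k2 (-0.29), Grb2 (-0.22) and Araf (-0.20). The counts were 3 and 6 without knockout clones B and C. Braf overlaps a gene on the opposite strand, and Nras was slightly below 0 with library size alone. Among ETS factors, transcription factors of which several are phosphorylated by ERK, 2 of 11 were higher and 2 lower, shares near the 14.5% and 17.1% over all genes. Etv4 was lower (-0.30), while its close relatives Etv1 (0.21) and Etv5 (0.18) were higher, though both were slightly below 0 with library size alone.

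Immediate early genes, which are transcribed within minutes of a signal, were mostly lower. Of 28 tested, 18 were lower and 4 higher, with a median of -0.34. In the AP-1 family of transcription factors, Fosl2 was at 33.7, 33.9 and 40.6 CPM in knockout clones and 106, 107 and 111 CPM in rescued clones (-1.60 ± 0.088), and Jun was at 11.3, 10.97 and 13.8 CPM in knockout clones and 31.7, 32.6 and 29.7 CPM in rescued clones (-1.41 ± 0.11). In neither gene did the groups overlap. Jun had been higher in knockout cells at 2 h (1.57), and Fosl2 at 0 h (0.73). Fos (-1.06), Fosl1 (-0.93) and Junb (-0.79) were also lower, of which Fosl1 and Junb each overlap another gene. The remaining AP-1 genes that passed were higher: Jund was at 40.9, 48.9 and 69.3 CPM in knockout clones and 26.1, 27.9 and 28.3 CPM in rescued clones (0.91 ± 0.13), and Atf3, low in both groups, was higher (1.46 ± 0.24).

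Outside AP-1 most genes that passed were lower as well. The zinc finger gene Egr1, a standard ERK target, was at 1185, 881 and 892 CPM in knockout clones and 1532, 1683 and 1506 CPM in rescued clones (-0.67 ± 0.089), and Egr3 (-1.10) and Egr2 (-1.36) were lower. Arc, which encodes a synaptic protein with a capsid-like fold, was at 146, 138 and 163 CPM in knockout clones and 311, 329 and 314 CPM in rescued clones (-1.10 ± 0.080). Knockout clones lay below rescued clones throughout in both genes, as was the case for 22.1% of all genes tested (they lay above throughout for 18.1%). Klf10 (-1.004), the orphan nuclear receptor gene Nr4a1 (-0.77), Klf6 (-0.33) and Myc (-0.20) were lower. The mRNA decay factor genes were split, with Zfp36l1 (0.50) higher and Zfp36 (-0.26) and Zfp36l2 (-0.39) lower, and the antiproliferative gene Btg2 was higher (0.36). Zfp36 did not pass without knockout clones B and C (-0.24).

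Ligands of the EGF receptor family, which can feed the cascade from outside the cell, were among the lower genes. Of 10 EGF pathway genes 5 were lower, all ligands, and 1 higher. Hbegf was at 110.0, 96.6 and 97.4 CPM in knockout clones and 244, 259 and 236 CPM in rescued clones (-1.27 ± 0.063), and the groups did not overlap. Nrg1 (-0.79) and Tgfa (-0.43) were lower, Tgfa no longer passing without knockout clones B and C (-0.39). Ereg stood at 0.628 to 1.33 CPM in knockout and 3.41 to 3.94 CPM in rescued clones (-1.85 ± 0.30), and Areg at 0 to 0.628 CPM in knockout and 1.502 to 1.64 CPM in rescued clones (adjusted p = 0.000709). In knockout clones 3 counts correspond to 0.302 to 0.628 CPM, so no fold change is given for Areg, which lay at or under that level there. The receptor gene Erbb3 was higher (1.01 ± 0.10).

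A set of genes chosen by the contrast of 2 h with 0 h in rescued cells widens this comparison. The 8 h libraries are not in that contrast, but they entered its gene filter, scaling and spread estimate. In rescued cells 1169 genes were called higher by more than 2-fold at 2 h of 4OHT relative to 0 h (32.4% of all genes were called higher at any size and 33.8% lower). At 8 h 516 of them (44.1%) were lower in knockout than in rescued cells and 103 (8.81%) were higher, with a median of -0.31, beside 17.1% lower and 14.5% higher over all genes. The 1637 genes called lower by more than 2-fold at 2 h divided more evenly, with 233 (14.2%) lower and 268 (16.4%) higher in knockout cells at 8 h and a median of 0.04. Without knockout clones B and C the medians of these sets were -0.33 and 0.05. The induced set overlaps the feedback and immediate early lists above.

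Naive pluripotency genes were mostly higher in knockout cells. Of 20 tested, 11 were called higher and 3 lower, with a median log2 fold change of 0.30. Without knockout clones B and C the counts were 8 and 2. Nanog, which encodes a homeobox factor that sustains self-renewal, was at 66.9, 67.2 and 77.7 CPM in knockout clones and 19.8, 19.6 and 19.8 CPM in rescued clones (1.82 ± 0.10, adjusted p = 1.06e-14). The rescued clones were nearly identical and every knockout clone stood far above them. At 0 h the difference had not passed the test (0.12). From 0 h to 8 h the change within each genotype was -2.35 on the log2 scale in knockout and -4.06 in rescued cells.

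The Nanog promoter is shown for ATGCAAA, a part of the octamer element that OCT4 binds, ahead of the start. The full octamer was not searched. The window, 1 of 2 that RefSeq gives for the gene, is chr6:122707239-122707538 on GRCm38.p6, plus strand. Capitals mark ATGCAAA, which was searched on both strands and lies here on the minus strand, so that the printed letters are its reverse complement. It is found in 4.63% of all windows.
Nanog promoter: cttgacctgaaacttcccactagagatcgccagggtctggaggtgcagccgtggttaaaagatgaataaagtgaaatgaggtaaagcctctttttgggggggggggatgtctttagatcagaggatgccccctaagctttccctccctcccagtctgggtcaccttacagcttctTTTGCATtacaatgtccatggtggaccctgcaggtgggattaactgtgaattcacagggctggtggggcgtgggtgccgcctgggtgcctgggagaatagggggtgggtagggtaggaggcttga

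Other naive transcription factor genes passed upward as well. Tbx3 was at 52.3, 46.1 and 51.3 CPM in knockout clones and 18.5, 19.3 and 20.6 CPM in rescued clones (1.37 ± 0.081), without overlap. Prdm14 (1.197), Tfcp2l1 (0.50), Klf2 (0.48), Nr0b1 (0.43) and Esrrb (0.31) were higher. Prdm14 and Tfcp2l1 had been lower in knockout cells at 0 h (-0.34 and -0.16). Among other naive markers, Tet2, which encodes an enzyme that oxidises methylated cytosine, was at 126, 122 and 119 CPM in knockout clones and 66.3, 66.2 and 69.9 CPM in rescued clones (0.86 ± 0.059), again without overlap. Tcl1 (1.10), Fbxo15 (0.51), which overlaps Timm21 on the opposite strand, and Fgf4 (0.23) were higher. Klf2, Tcl1 and Fgf4 did not pass without knockout clones B and C (0.31, 0.51 and 0.18), and Fgf4 was slightly below 0 with library size alone.

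The naive genes did not all differ alike. Gbx2 was at 4.23, 5.32 and 5.44 CPM in knockout clones and 17.8, 18.96 and 17.0 CPM in rescued clones (-1.88 ± 0.17), the reverse of Nanog, and the groups did not overlap. Klf5 (-0.31) and Tdh (-0.19), which encodes threonine dehydrogenase, were lower to a small extent, and Tdh did not pass without knockout clones B and C (-0.19). Zfp42 (0.07), Nr5a2 (0.02), Klf4 (0.19), Mybl2 (0.13), Sox15 (0.19) and Dppa3 (0.28) did not pass.

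In the LIF pathway, which supports naive cells through STAT3, 3 of 10 genes were higher and 5 lower. The higher ones were signalling components: Jak1 (0.38), Stat3 (0.38) and Il6st (0.26), which was at 0.00 with library size alone. The lower ones were the ligand gene Lif (-0.39) and targets, namely Pim1 (-0.54), Socs3 (-0.26), Bcl3 (-0.25) and Junb. Jak1, Lif and Bcl3 did not pass without knockout clones B and C (0.19, -0.28 and -0.17).

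Among 13 core pluripotency genes 8 were higher and 1 lower with all clones, and 5 and 2 without knockout clones B and C. The neighbouring genes Dppa2 (0.77) and Dppa4 were higher, Dppa4 at 160.5, 161 and 159 CPM in knockout clones and 108, 105 and 104 CPM in rescued clones (0.60 ± 0.052). Both kept their size without B and C (0.81 and 0.60). Foxd3 (0.59), Tdgf1 (0.40), the gene of a Nodal co-receptor, and Zscan10 (0.24) were higher too. The calls of Pou5f1, Lin28a and Dppa5a rested on clones B and C. Pou5f1, which encodes OCT4, was at 269, 344 and 382 CPM in the knockout (clones A, B, C in turn), against 278 to 285 CPM in rescued clones, so clone A lay below all rescued clones and B and C above them. The log2 fold changes were 0.23, 0.32 and 0.79 with all clones and -0.07, -0.05 and 0.12 without B and C. With library size alone Pou5f1 and Zscan10 were slightly below 0. Sox2 did not pass (-0.18, adjusted p = 0.0535) but did without them (-0.34).

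**Figure D4:**
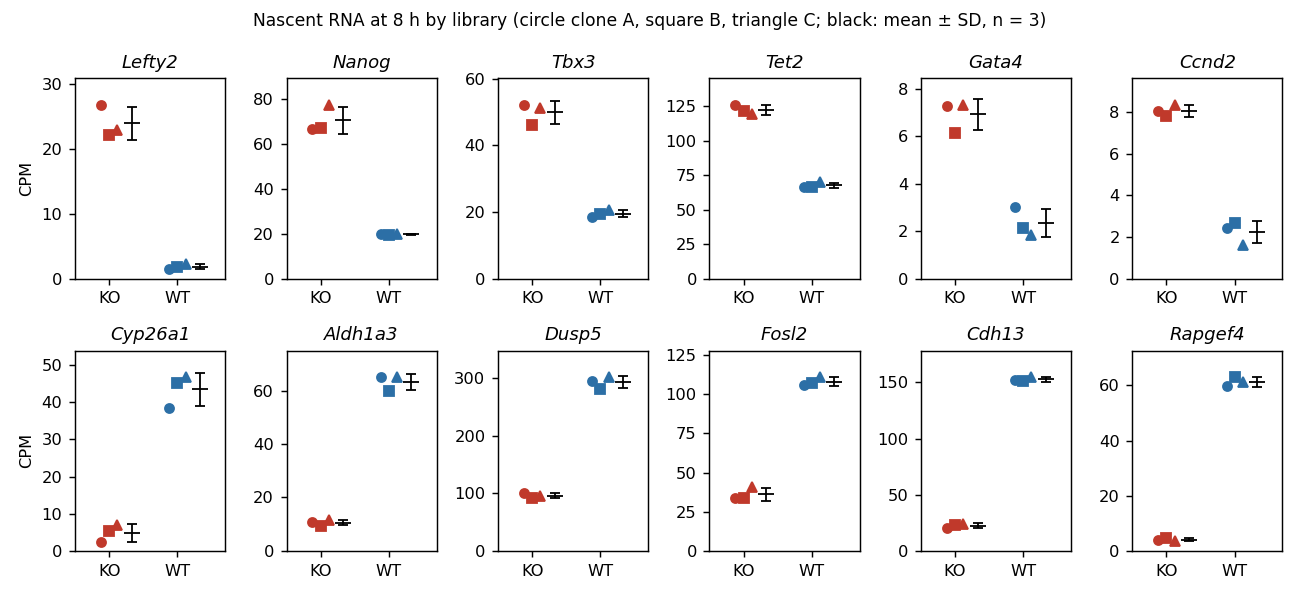
Level of 12 genes in each library of 8 h (CPM, axes from 0), knockout (KO) left of rescued (WT), with clones A, B and C as circle, square and triangle and the mean ± SD of 3 clones in black. For Lefty2, Nanog, Tbx3, Tet2, Gata4 and Ccnd2 every knockout clone lies above every rescued clone, and for Cyp26a1, Aldh1a3, Dusp5, Fosl2, Cdh13 and Rapgef4 every knockout clone lies below.

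Nodal, a TGF-beta family ligand made by early embryonic cells, signals through activin receptors to SMAD2 and SMAD3 and induces its own secreted antagonists, the Lefty proteins. Of 18 Nodal and activin genes 6 were higher and 6 lower, with a median of 0.00. Among ligands, Nodal was at 58.0, 41.4 and 49.0 CPM in knockout clones and 26.7, 27.4 and 26.0 CPM in rescued clones (0.91 ± 0.099), with no overlap, and the related ligand gene Gdf3 was higher (0.33), while Inhbb (0.44) and Tgfb1 (0.00) did not pass. Among antagonists, Lefty2 was at 26.8, 22.1 and 22.8 CPM in knockout clones and 1.44, 1.77 and 2.20 CPM in rescued clones (3.80 ± 0.30), with all knockout clones far above. At 0 h Lefty2 had not passed the test (0.23, adjusted p = 0.367).

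Lefty1, a close copy of Lefty2, was at 0.419 to 1.995 CPM in knockout and 0 to 0.506 CPM in rescued clones and did not pass (adjusted p = 0.117), and reads of such copies may be divided uncertainly. Fst, which encodes follistatin, was higher (0.94) but not so without knockout clones B and C (0.90, not passing), and Fstl1 was lower (-0.54). The receptor genes differed one by one. Tgfbr2, the type II receptor for TGF-beta, was at 50.9, 57.7 and 50.1 CPM in knockout clones and 109.6, 113 and 124 CPM in rescued clones (-1.12 ± 0.089), with all knockout clones below. Tgfbr1 was higher (0.28), and Acvr1b, Acvr2a and Acvr2b were not called (0.00, 0.00 and -0.04). Of 5 targets 4 were lower and 1 higher. Smad7, which encodes an inhibitory SMAD (-0.51), Skil (-0.32) and Pmepa1 (-0.27) were lower, Pmepa1 no longer passing without knockout clones B and C (-0.11).

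BMP, another arm of the family, acts through SMAD1 and SMAD5 on Id genes. Of 15 BMP genes 6 were lower and 1 higher, and 5 of the lower ones were targets. Id2, which encodes an inhibitor of basic helix-loop-helix factors, was at 4.93, 3.16 and 3.35 CPM in knockout clones and 13.3, 13.8 and 14.1 CPM in rescued clones (-1.76 ± 0.15), without overlap. Msx1 (-1.71), Id1 (-0.76), Smad6 (-0.74) and Id3 (-0.62) were lower. The ligand gene Bmp7 was lower (-0.65), though not without knockout clones B and C (-0.54, not passing), and none of the 3 receptor genes was called. Msx2 was the 1 higher gene (1.22), at 1.33 to 2.72 CPM in knockout and 0.464 to 1.24 CPM in rescued clones.

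Wnt target genes, which beta-catenin and TCF factors control, were lower in 6 of 11 and higher in none, with a median of -0.56. Notum, which encodes a secreted inactivator of Wnt, was at 3.22, 2.66 and 4.40 CPM in knockout clones and 17.8, 17.9 and 16.2 CPM in rescued clones (-2.37 ± 0.21), with wide separation. Ccnd1 (-1.72), Lef1 (-1.31), Sp5 (-1.16), Cdx1 (-1.10) and Tcf7 (-0.23) were lower, whereas Axin2, the most general target, did not pass and lay above 0 (0.28 ± 0.15). Sp5 did not pass without knockout clones B and C (-1.10). Cells of both groups had been grown with the GSK3 inhibitor until the medium was changed.

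Retinoic acid is made from retinal by aldehyde dehydrogenases, and CYP26 enzymes degrade it, Cyp26a1 being a gene that retinoic acid itself induces. Of 17 retinoic acid genes 5 were lower and 1 higher in knockout cells. Aldh1a3, a synthesis gene, was at 10.9, 9.48 and 11.5 CPM in knockout clones and 65.0, 59.8 and 65.1 CPM in rescued clones (-2.58 ± 0.11). The knockout clones lay far under every rescued clone, and the gene had not passed at 0 h (0.12).

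Cyp26a1 was at 2.32, 5.32 and 6.91 CPM in the knockout (clones A, B, C in turn), against 38.4 to 46.8 CPM in rescued clones (-3.32 ± 0.20). The spread among knockout clones was large in relative terms, and without clones B and C the value was -4.21. At 0 h the gene was near the floor in both groups, with mean levels of 0.562 CPM (knockout) and 0.541 CPM (rescued). The difference at 8 h minus that at 0 h was -3.33 ± 0.80. Cyp26c1 (-1.44) and the retinoid X receptor gene Rxrg (-1.92) were lower, while Stra6, a retinol transporter gene, was higher (1.57) at 0.333 to 1.47 CPM in knockout and 0.196 to 0.506 CPM in rescued clones. Its groups overlapped and it did not pass without knockout clones B and C (1.63). The receptor genes Rara, Rarb and Rarg did not pass (0.00, 0.08 and 0.00).

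The Cyp26a1 promoter is shown because it contains a direct repeat of the half-site that retinoic acid receptors bind. The window is chr19:37697558-37697857 on GRCm38.p6, plus strand, from RefSeq. Capitals mark AGTTCA, searched on both strands. Its 2 copies here lie on the minus strand, printed as the reverse complement, with 5 bases between them, at positions -32 and -21 from the start. At least 1 copy is present in 14% of all windows.
Cyp26a1 promoter: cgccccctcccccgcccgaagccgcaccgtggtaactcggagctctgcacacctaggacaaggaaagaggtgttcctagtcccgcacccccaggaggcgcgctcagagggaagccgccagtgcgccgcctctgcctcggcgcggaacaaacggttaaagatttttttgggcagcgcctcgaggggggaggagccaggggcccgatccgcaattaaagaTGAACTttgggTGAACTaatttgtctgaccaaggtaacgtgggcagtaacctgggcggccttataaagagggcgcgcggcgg

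Markers of the extraembryonic lineages went opposite ways. Primitive endoderm, the layer next to the blastocoel, is marked by GATA factors and basement membrane genes. Of 15 such genes 9 were higher and 2 lower, with a median of 0.52. Without knockout clones B and C the counts were 7 and 2 and the median 0.32. Gata4 was at 7.25, 6.15 and 7.33 CPM in knockout clones and 3.003, 2.15 and 1.85 CPM in rescued clones (1.49 ± 0.21). Pdgfra, a receptor gene of this lineage, was at 4.23, 2.99 and 3.77 CPM in knockout clones and 0.783, 0.885 and 1.04 CPM in rescued clones (2.07 ± 0.33). In both the groups were apart, at low levels. Gata6 (1.38), Sox17 (1.76) and Dab2 (1.36) were higher, Sox17 not passing without knockout clones B and C (1.46). Fgfr2 was called (1.12) but belongs to the abundant set, and was at -0.05 without those clones. Over 6 defining markers the summed level was 22.9 to 29.3 CPM in knockout and 8.81 to 9.73 CPM in rescued clones. In bulk RNA more cells of a type and more RNA per cell cannot be told apart.

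Of the basement membrane genes, Col4a1 was at 128, 112 and 159 CPM in knockout clones and 68.5, 64.8 and 65.3 CPM in rescued clones (0.99 ± 0.098), with its overlapping neighbour Col4a2 (0.52) and Lamb1 (0.39) higher too. Lama1 (-0.04), Lamc1 (-0.06) and Sparc (0.16) did not pass. The endocytic receptor genes Lrp2 (-0.64) and Cubn (-0.53) were lower, Cubn not passing without knockout clones B and C (-0.63). Gata4, Gata6, Pdgfra, Dab2, Col4a1 and Col4a2 had been called higher at 0 h (1.21, 1.32, 1.72, 0.71, 0.94 and 0.80), and for none of them did the 8 h difference pass a test against that at 0 h (0.28, 0.06, 0.35, 0.64, 0.05 and -0.27).

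Trophectoderm genes, which mark the outer layer of the blastocyst, were lower in 6 of 12 and higher in none, with a median of -0.37. Without knockout clones B and C 6 were lower and the median was -0.64. Cdx2, a homeobox gene that defines the lineage, was at 1.61, 1.83 and 1.26 CPM in knockout clones and 6.40, 7.33 and 7.77 CPM in rescued clones (-2.14 ± 0.25). Hand1 was at 1.51, 1.66 and 1.88 CPM in knockout clones and 7.44, 8.59 and 10.2 CPM in rescued clones (-2.38 ± 0.26). The groups did not overlap in either. Ascl2 (-1.79), Gata3 (-0.86), Krt7 (-0.59) and Tead4, whose product acts upstream of Cdx2 (-0.46), were lower. Gata3 overlaps 2 counted noncoding loci, and Krt7 did not pass without knockout clones B and C (-0.76). Tead4 had been higher in knockout cells at 0 h (0.48) and lower at 2 h (-1.90). The summed level of 5 trophectoderm markers was 23.6 to 33.5 CPM in knockout and 51.1 to 60.0 CPM in rescued clones.

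Few genes of later lineages were abundant enough to test. Of 7 mesoderm and endoderm genes, Kdr (-1.43), the brachyury gene T (-0.95) and Evx1 (-0.61) were lower and Snai1 (1.38 ± 0.22) higher. Of 4 neural genes Pax6 (-1.14), Nes (-0.48) and Map2 (-0.39) were lower. The summed level of 5 neural markers was 23.0 to 28.9 CPM in knockout and 38.4 to 40.0 CPM in rescued clones, with Neurog2 and Tubb3 at 0 counts, and that of 4 mesoderm markers 9.84 to 11.5 CPM in knockout and 13.3 to 16.4 CPM in rescued clones. Genes of the formative and primed epiblast, the state that follows the naive one, were split, with 4 of 14 higher and 5 lower. Cdh2, which encodes N-cadherin, was at 29.9, 35.1 and 32.5 CPM in knockout clones and 118, 111 and 119 CPM in rescued clones (-1.85 ± 0.078), with wide separation. Tcf15 (-0.90) and Pou3f1 (-0.86) were lower, and Zic2 (0.75), Zic5 (0.60), Sox4 (0.27) and Dnmt3b (0.18) higher. Dnmt3b (0.04), Zic5 (0.58), Evx1 (-0.55) and Map2 (-0.36) did not pass without knockout clones B and C, and Dnmt3b was slightly below 0 with library size alone. Of 8 markers of the 2-cell-like state only Zscan4d could be tested. It was at 0.998 to 1.81 CPM in knockout and 0.0653 to 0.232 CPM in rescued clones (adjusted p = 2.08e-05), under the level of 3 counts in each rescued clone, and has close copies that make its value uncertain.

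**Figure D5:**
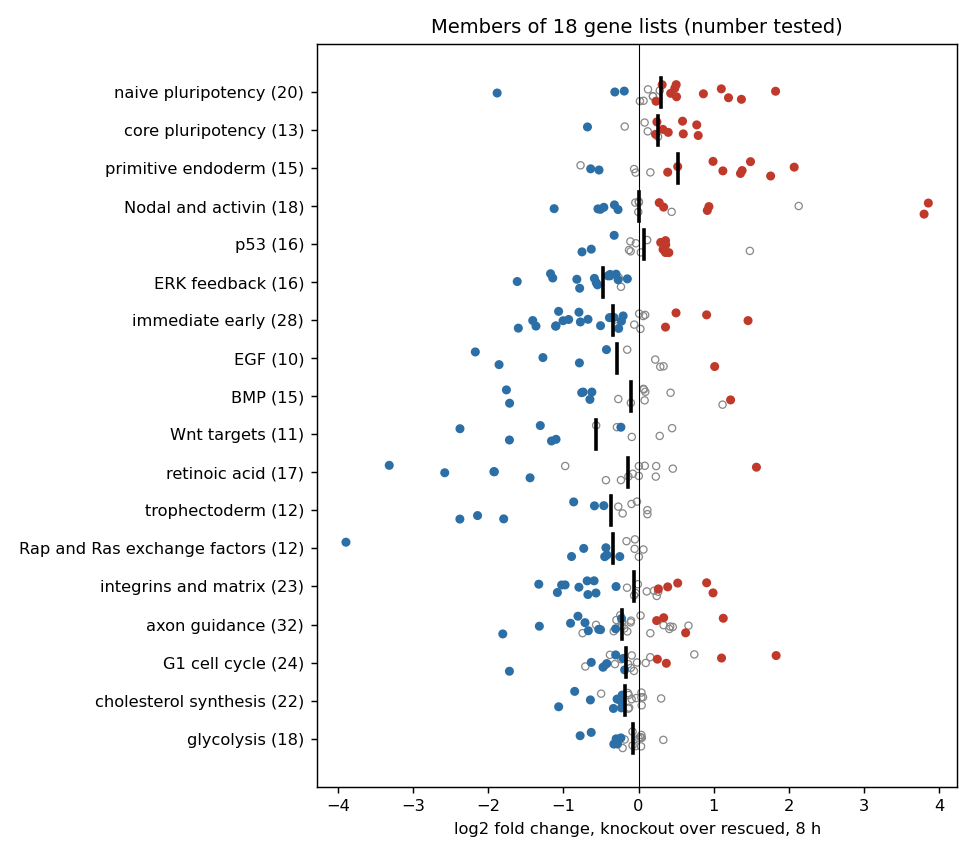
Log2 fold change between knockout and rescued cells at 8 h for each tested member of 18 gene lists, with filled points for genes called higher (red) or lower (blue), open points for genes not called, and a black bar at the list's median. The bar lies at 0.30 for naive pluripotency, 0.52 for primitive endoderm, -0.48 for ERK feedback and -0.56 for Wnt targets, beside a median of 0.00 over all genes tested.

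Among called genes with a mean of at least 5 CPM and groups that did not overlap, the 15 highest and 15 lowest by fold change held several that belong to no list above. Themis, which encodes a T cell signalling adaptor, was at 18.3, 13.6 and 11.3 CPM in knockout clones and 2.55, 1.77 and 1.97 CPM in rescued clones (2.77 ± 0.19). Hcrtr2, an orexin receptor gene, was at 24.0, 21.3 and 17.0 CPM in knockout clones and 3.92, 3.67 and 5.33 CPM in rescued clones (2.32 ± 0.14). Themis had been near the floor at 0 h, with mean levels of 0.937 CPM (knockout) and 0.677 CPM (rescued). Fstl5 (1.95), the sodium pump subunit gene Atp1b2 (1.84), the tetraspanin gene Cd37 (1.75), the glycosyltransferase gene Galnt6 (1.74), Cd24a (1.60), Trim52 (1.55), the transporter gene Slco4c1 (1.53) and Porcn (1.51), whose product attaches the lipid to Wnt proteins, were among the 15 highest. Cd37 overlaps Tead2 on the opposite strand, itself higher (0.53).

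Rpl39l (2.06 ± 0.12) has close ribosomal protein copies, so its value is uncertain. Ccdc107 followed the abundant set: it was at 114, 472 and 866 CPM in the knockout (clones A, B, C in turn), against 91.0 to 108 CPM in rescued clones, and its log2 fold change of 2.21 ± 0.44 became 0.14 without clones B and C. Lefty2, Nanog and Ccnd2 completed the 15 highest.

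Rapgef4 was the lowest of the 15. It encodes a guanine nucleotide exchange factor that cAMP activates for the small GTPase Rap1, and was at 3.93, 4.82 and 3.56 CPM in knockout clones and 59.6, 63.1 and 61.1 CPM in rescued clones (-3.89 ± 0.11). It had already been lower at 0 h (-2.54), and the 8 h difference lay further below (-1.36 ± 0.15 for the difference of differences). Of 12 genes for Rap and Ras exchange and Rap inactivation 7 were lower and none higher, among them Rap1gap2 (-0.89), Rapgef3 (-0.73) and Rapgef1 (-0.42), and 4 were lower without knockout clones B and C.

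Ociad2 was at 8.46, 11.1 and 14.2 CPM in knockout clones and 77.8, 72.2 and 77.3 CPM in rescued clones (-2.82 ± 0.12), without a called difference at 0 h (-0.13). Cdh13, which encodes a cadherin held in the membrane by a lipid anchor, was at 20.1, 23.4 and 23.9 CPM in knockout clones and 152, 151 and 155 CPM in rescued clones (-2.79 ± 0.077), with a smaller difference at 0 h (-0.49). In both genes the knockout clones lay far below the rescued ones. The dual oxidase gene Duox1 was lower (-2.72), as it had been at 0 h (-3.90). The adhesion receptor gene Adgrg1 (-2.66), Nptxr, a neuronal pentraxin receptor gene (-2.65), Plau, which encodes urokinase (-2.57), Hopx (-2.52), the troponin gene Tnnt3 (-2.24) and the PIWI family gene Piwil4 (-2.21) were lower. Nptxr overlaps Npcd on the same strand. With Med24, Cyp26a1, Aldh1a3, Hand1 and Notum these make up the 15 lowest, and each remained called and below 0 without knockout clones B and C.

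Integrins, the receptors that bind cells to matrix, were mostly lower, and the matrix itself was mixed. Of 11 integrin genes 7 were lower and 1, Itgav, higher (0.26). Itga8 was at 47.7, 57.2 and 51.9 CPM in knockout clones and 127, 130.3 and 134 CPM in rescued clones (-1.33 ± 0.072), without overlap, and Itga3 (-1.08) and Itga7 (-0.98) were lower. Of 12 laminin, collagen and other matrix genes 4 were higher and 3 lower, beside 14.5% and 17.1% over all genes. Fn1, which encodes fibronectin, was at 287, 325 and 337 CPM in knockout clones and 162, 174 and 169 CPM in rescued clones (0.91 ± 0.088), with all knockout clones above. Nid1 (-1.02) and Col18a1 (-0.68), which overlaps Slc19a1, were lower. Itgav did not pass without knockout clones B and C (0.21).

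Of 32 axon guidance genes, many of which also steer non-neural cells, 10 were lower and 4 higher, beside 17.1% and 14.5% over all genes. The semaphorin receptor gene Nrp1 was at 2.32, 1.496 and 1.88 CPM in knockout clones and 7.05, 6.57 and 7.07 CPM in rescued clones (-1.81 ± 0.29), without overlap, although it had been higher in knockout cells at 2 h (1.08). Sema6d (-1.32) and Nrp2 (-0.53) were lower, and Robo1 (0.24) and Robo2 (0.63), receptor genes for Slit proteins, higher, though Robo1 was slightly below 0 with library size alone. Of 8 ephrin ligand genes 3 were lower, Efna4 (-0.74), Efna5 (-0.72) and Efnb2 (-0.70).

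The D-type cyclins, which carry growth signals to the G1 kinases, differed in opposite directions. Ccnd1 was at 7.55, 9.98 and 8.59 CPM in knockout clones and 27.1, 28.3 and 29.2 CPM in rescued clones, and Ccnd2 at 8.05, 7.81 and 8.38 CPM in knockout clones and 2.42, 2.65 and 1.62 CPM in rescued clones. They differed on the log2 scale by -1.72 ± 0.12 and 1.83 ± 0.22, and no clones overlapped between groups. Ccne1 (-0.42) and the kinase inhibitor genes Cdkn1a (-0.63) and Cdkn2b (-0.47) were lower and Ccnd3 (0.25) higher. Of 24 G1 genes 7 were lower and 4 higher, beside 17.1% and 14.5% over all genes. The counts became 5 and 1 without knockout clones B and C. Ccnd3 and Cdkn2b did not pass without knockout clones B and C (0.20 and -0.33), and Ccnd3 was slightly below 0 with library size alone. Trp53, the p53 gene, was higher (0.40 ± 0.062). Of 16 genes, p53 and its targets, 6 were higher and 3 lower, with a median of 0.07 and 9 genes above and 7 below 0. The lower ones were the targets Cdkn1a, Mdm2 (-0.32) and Perp (-0.75). The higher targets are not named here, so these names do not stand for the list.

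The counts of metabolic genes depended on which knockout clones were used. Of 18 glycolysis genes 6 were lower and none higher with all clones (median -0.08), and 14 were lower without B and C (median -0.44). Slc2a1, the main glucose transporter gene, was at 284, 328 and 385 CPM in knockout clones and 562, 564 and 571 CPM in rescued clones (-0.78 ± 0.071), with clone A the lowest, and Slc16a3, the lactate exporter gene, was lower (-0.63). Of 22 cholesterol genes 9 were lower and none higher, and 12 without B and C. Msmo1, an enzyme gene of the pathway, was at 82.4, 94.6 and 94.4 CPM in knockout clones and 141, 137 and 141 CPM in rescued clones (-0.64 ± 0.062), without overlap.

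Several abundant gene groups were higher with knockout clones B and C and lost most of those calls without them. Of 74 ribosomal protein genes 18 were higher and 1 lower with all clones, and 1 and 1 without B and C. Of 84 respiratory chain genes 18 were higher and 2 lower, against 6 and 2. The 12 heat shock genes had 5 higher and 1 lower, against 2 and 3. At 0 h 55 ribosomal protein, 15 respiratory chain and 1 heat shock gene were called higher in knockout cells, beside 6.83% over all genes. Called lower at 0 h were 2 heat shock genes and no ribosomal protein or respiratory chain gene, beside 9.64%. The 8 h difference lay below that at 0 h in 12 ribosomal protein genes and above it in none. Actb, the cytoplasmic actin gene, was at 895, 1575 and 2099 CPM in the knockout (clones A, B, C in turn), against 941 to 1011 CPM in rescued clones, and its log2 fold change of 0.65 became -0.12 without B and C. Fhl2, another gene linked to actin signalling, was at 33.9, 29.9 and 33.7 CPM in knockout clones and 90.0, 97.6 and 105 CPM in rescued clones (-1.57 ± 0.077) and did not depend on those clones (-1.52).

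The share of counts in the 13 abundant genes was 18.2% in knockout clone A, 36.4% in B and 43.9% in C, and its part in these results was not tested. Some of the larger differences were about as large without B and C, in a fit that shares clone A and the rescued clones. Lefty2 stood at 3.94, Nanog at 1.75, Tbx3 at 1.43, Dusp5 at -1.55, Spry4 at -1.06, Fosl2 at -1.68, Aldh1a3 at -2.55 and Rapgef4 at -3.96. These genes were picked with their values known, and Cyp26a1 and Ccdc107, given above, moved more.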

How the data were processed

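Nascent RNA of 18 mouse embryonic stem cell libraries was sequenced after ethynyl uridine labelling, Click-iT capture and NEBNext library preparation, per the labels' protocols. The authors deposited whole-number read counts per gene symbol. The submitters' processing notes name mm10, STAR, featureCounts and DESeq, while no version, counting setting or strand use is given in the sources used here. No spike-in is named, so changes are relative to other genes.

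Counts were tested with edgeR 4.0.16 in R 4.3.3 (filterByExpr, TMM scaling, quasi-likelihood test) in 1 model with 6 group means over all 18 libraries, without a block. P-values were adjusted by the Benjamini-Hochberg method over 14128 genes, and a gene was called at an adjusted p under 0.05. Standard errors were derived from the F statistic. In counts simulated over 13852 genes, 100 genes were changed 1.5-fold and 100 were changed 2-fold, all with a mean of at least 5 CPM. Of these, 89% and 99% were recovered. All simulated libraries otherwise shared a common mean profile, without the abundant-gene shares of knockout clones B and C. The simulation therefore does not show how many real differences of these sizes were found here. Each CPM value is a count over the library's total times its TMM factor, and 3 counts correspond to 0.302 to 0.628 CPM in knockout and 0.196 to 0.379 CPM in rescued libraries. Replicate libraries differed beyond sampling noise. At 8 h the chi-square per degree of freedom between 2 libraries was 9.35 to 103 in knockout and 1.52 to 1.84 in rescued cells.

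Alternatives were a block on the clone letter, other scalings and filters, DESeq2 1.42.0, the 8 h libraries alone, a covariate for the abundant genes' share, and left-out clones.

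The genes named are Mediator subunits, the 15 highest and 15 lowest called genes with a mean of at least 5 CPM and groups that do not overlap (predicted gene models left out), up to 4 members of each list by smallest p, and all members of 4 lists (naive pluripotency, primitive endoderm, ERK feedback, Nodal and activin). A few genes that this rule covers are not reported here. Other genes named were chosen after their values were seen. Members and lists were chosen with earlier results of these data known. Promoter windows come from RefSeq on GRCm38.p6, matched by symbol for 10790 of 14128 genes. Figures were drawn with matplotlib 3.10.9.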

Additional observations from a re-analysis of the deposited data

Results flagged for a closer look

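Of 259 genes printed, 231 were called at 8 h and 20 of these were flagged. The rule asked for a call in the opposite direction at 0 h or 2 h. It also asked that the difference between the 2 times pass (edgeR quasi-likelihood test, Benjamini-Hochberg adjusted over all genes). Passing is therefore part of the rule and no further result. Over all genes tested, 82 of the 2047 higher and 92 of the 2421 lower genes were called in the opposite direction at 0 h. At 2 h these counts were 41 and 58, without the requirement on the difference between times. The values are log2 fold changes of knockout over rescued cells, first at the earlier time, then at 8 h, then the 8 h value minus the earlier one. A further 140 called genes had a difference between times that passed but did not meet the rule. Whether their sign stayed the same was not checked. At 2 h knockout clone A held 34.2% of counts in the abundant genes, and its part in the 2 h values was not tested.

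Among genes of the ERK pathway, Dusp1 stood at 0.33 at 0 h and -0.78 at 8 h (-1.11). Dusp4 stood at 0.74 and -0.15 (-0.89), and Spry2 at 0.37 and -0.41 (-0.78). Fosl2 stood at 0.73 at 0 h and -1.60 at 8 h (-2.33), and Jun at 1.57 at 2 h and -1.41 at 8 h (-2.98). The receptor gene Erbb3 stood at -0.35 at 2 h and 1.01 at 8 h (1.36). Ereg, a ligand gene of the EGF family, had 4.40 at 0 h and -1.85 at 8 h (-6.26), with 0 h mean levels of 0.29 CPM (knockout) and 0 CPM (rescued), too low for a firm size.

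Among pluripotency genes, Prdm14 stood at -0.34 at 0 h and 1.197 at 8 h (1.53), Tfcp2l1 at -0.16 and 0.50 (0.66), and Foxd3 at -0.51 and 0.59 (1.09). Tdh stood at 0.30 at 2 h and -0.19 at 8 h (-0.49), and Sox4 at -0.59 and 0.27 (0.86). The trophectoderm gene Tead4 stood at 0.48 at 0 h and -0.46 at 8 h (-0.94).

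Among guidance and metabolic genes, Nrp1 stood at 1.08 at 2 h and -1.81 at 8 h (-2.89). Robo1 stood at -0.20 at 0 h and 0.24 at 8 h (0.45), and Efnb2 at 0.28 and -0.70 (-0.98). Slc16a3 stood at 0.41 at 0 h, 0.43 at 2 h and -0.63 at 8 h (-1.04 against 0 h and -1.06 against 2 h), and Msmo1 at 0.23 at 0 h and -0.64 at 8 h (-0.87). Of the YAP targets, Ctgf stood at -0.24 at 2 h and 0.78 at 8 h (1.02), and Cyr61 at 0.26 at 0 h and -0.29 at 8 h (-0.55).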

How the results depend on the processing

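The counts of 2047 higher and 2421 lower genes moved most when libraries were scaled by total counts alone, to 357 and 4001. With that scaling 109 genes lay above their 0 h difference, and 79 lay above and 293 below their 2 h difference. Under the other alternatives the counts ranged from 1467 to 2202 higher and 1900 to 2593 lower, the low ends being the fit without knockout clones B and C and DESeq2. Leaving out each library of 8 h in turn gave 1482 to 1921 higher and 1969 to 2285 lower genes.

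With the clone letter as a replicate block 2034 genes were higher and 2421 lower, of which 1998 and 2384 were called without it. The labels repeat a clone letter in both arms and say nothing more of it. Across genes, the residuals of the knockout and rescued library with a common letter correlated by -0.0232 to 0.0651. Of 9 knockout libraries, 5 correlated best with their own letter. These values do not decide whether the letter is a pairing. The main fit had no block because the labels do not say how clones were handled. Of the genes printed, the block changed the call of Sox2 alone (adjusted p = 0.0344), so the core pluripotency count of lower genes became 2, and other list counts moved by less than 1.5 times.

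With library size alone 356 of the 2047 higher genes were called again, and 635 of all 4468 called genes changed sign. With the abundant genes' share as a covariate 39 changed sign. Among the genes printed here, the values that reversed were small. With library size alone Dnmt3b (-0.092), Etv5 (-0.076), Pou5f1 (-0.064), Med7 (-0.048), Etv1 (-0.043), Med9 (-0.040), Nras (-0.040), Fgf4 (-0.022), Ccnd3 (-0.021), Zscan10 (-0.018), Robo1 (-0.016) and Il6st (-0.0020) lay below 0. With the abundant genes' share as a covariate and without knockout clones B and C the values were -0.21 and -0.24 for Kpna1, -0.18 and -0.19 for Lars2, -0.11 and -0.15 for Cd44, -0.10 and -0.10 for Gphn, -0.052 and -0.12 for Actb, -0.048 and -0.053 for Lin28a, -0.048 and -0.052 for Fgfr2, -0.040 and -0.057 for Jarid2, and -0.011 and -0.066 for Pou5f1. Ccdc107 was at -0.090 with the covariate. The causes were not tested. At 6691177 to 14541145 counts per library, levels under 0.196 to 0.628 CPM rest on fewer than 3 counts.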

Other observations

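Some genes known from the germline are given as values only. They were picked after their values were seen and are no sample of such genes, and the PIWI family gene Piwil4 went the other way (-2.21). Mael, a gene of the piRNA pathway, was at 7.65, 8.31 and 9.42 CPM in knockout clones and 2.55, 2.78 and 3.94 CPM in rescued clones (1.46 ± 0.20). Rnf17, which encodes a tudor domain protein, was at 76.6, 77.8 and 78.5 CPM in knockout clones and 34.0, 39.4 and 40.5 CPM in rescued clones (1.05 ± 0.067). In both genes all knockout clones lay above all rescued clones. Pramef12 (1.45), Hormad2 (1.11), Stk31 (1.02), Tdrd12 (0.95), Tex11 (0.92) and Tex15 (0.91) were higher too. At 0 h Tex15, Tex11 and Mael had not passed (0.06, 0.47 and 0.38), whereas Tdrd12 and Rnf17 had been higher (0.67 and 0.50).

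Of 12 genes of the Hippo pathway effectors YAP and TEAD and their targets, 3 were higher and 6 lower, and 3 and 5 without knockout clones B and C. Wwtr1, which encodes the coactivator TAZ, was at 38.8, 34.7 and 33.1 CPM in knockout clones and 71.6, 70.3 and 79.2 CPM in rescued clones (-1.03 ± 0.079). The target Ctgf was higher (0.78) and the target Cyr61 lower (-0.29). Of 12 integrated stress response genes 4 were higher and 1 lower, and 6 and 1 without knockout clones B and C, with the glutathione-degrading enzyme gene Chac1 (0.95) and Nupr1 (1.04) higher and the factor gene Atf4 lower (-0.46). Of 18 genes that act on paused RNA polymerase II 4 were higher and 5 lower, beside 14.5% and 17.1% over all genes, and 3 and 3 without knockout clones B and C. Mllt3, a super elongation complex gene, was at 23.3, 22.3 and 26.2 CPM in knockout clones and 41.9, 39.6 and 44.7 CPM in rescued clones (-0.83 ± 0.084), and Aff4, the scaffold gene of that complex, was higher (0.31).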
